A study of Mus musculus with 6 samples.

Results

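The transcripts described here are those of 10 genes grouped as cyclins and kinases of the spermatocyte divisions, although some act mainly in other stages: the cyclins Ccna1, Ccna2, Ccnb1, Ccnb2 and Ccnb3, the cyclin-dependent kinases Cdk1 and Cdk2, the phosphatase Cdc25c, and the kinases Plk1 and Aurkc. They were taken by gene symbol from 23253 genes listed in whole-testis mRNA tables of C57BL/6 mice aged 8 months, and all 10 were listed in every library. The design set 3 libraries with the genotype label control against 3 with the label L3mbtl2 cKO, a conditional knockout of a Polycomb repressor subunit, to ask how loss of L3mbtl2 changes testicular RNA. Which Cre drove the deletion, in which cells, and whether controls carried a floxed allele or Cre are not given in the sources used here. Nothing says that the 3 libraries of a group are separate animals, so the p-values cover the spread between libraries only.

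A cyclin activates its kinase partner, and the partner's substrates set the stage of the cell cycle. In male meiosis, Cdk2 acts during the long prophase, and Cdk1 with A- and B-type cyclins takes the cell into the divisions after Cdc25 phosphatases remove an inhibitory phosphate. Plk1 helps to dismantle the synaptonemal complex and build the spindle, and Aurkc is the Aurora kinase of germ cells that works at centromeres. Mitotic spermatogonia use several of the same genes, so whole-testis RNA mixes both kinds of division. In such tissue, fewer cells of a type and less RNA per cell cannot be told apart.

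The genotype labels have to be read with care. L3mbtl2 itself stood at 35.0, 38.8 and 36.1 CPM (counts scaled to library size, here by the trimmed mean of M-values, TMM) under the label control and 56.9, 60.9 and 57.2 under the label cKO, higher where the label says it was deleted. Its FPKM differed less, at 14.0, 14.9 and 13.6 against 15.9, 17.1 and 16.0, and its abundance-weighted length was 2652 to 2838 bases under the label control and 3489 to 3498 under the label cKO. The deposited tables also carry the opposite genotype in their names. Directions below follow the labels and would turn if these were exchanged. Expected counts summed to 17689205 to 18822050 per library. The library labelled control replicate 3 stood apart: its log2 CPM correlated at 0.923 to 0.966 across genes with the other libraries, against 0.981 to 0.982 among those labelled cKO. Summed FPKM (fragments scaled to transcript length and library size) of 6 Leydig markers ran from 1658 to 8819.9 under the label control, highest in replicate 3, and from 1246 to 1328 under the label cKO. For 8 Sertoli markers the ranges were 848 to 2263 and 640.2 to 681, and for 7 markers of pachytene and later spermatocytes 3675 to 4903 and 5080.4 to 5187. No marker of these lists was at 0 in any library.

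Promoters of the 3 B-type cyclins are printed, since Ccnb3 lay apart from Ccnb1 and Ccnb2 in the results, with those of Ccna1, Cdk1 and Plk1. Sequences are from RefSeq (GRCm38.p6, the primary assembly of mm10), from 120 bases before to 30 bases after an annotated start, 5′ to 3′ on the gene's strand, with matches to 4 motifs in capitals. For Ccna1 the window lies inside the gene's span (55045469 to 55057634, minus strand), so the start used is not the outermost 5′ end of that gene. For Ccnb3 the start used also lies inside the gene's span, close to its outermost 5′ end at 7041635. The motifs were the CCAAT box (CCAAT), the cell cycle homology region (TTTGAA), the E-box (CACGTG) and an E2F site (GCGGGAA), each on either strand; they do not overlap each other in these windows.
Ccna1, chr3:55055026-55055175, minus strand: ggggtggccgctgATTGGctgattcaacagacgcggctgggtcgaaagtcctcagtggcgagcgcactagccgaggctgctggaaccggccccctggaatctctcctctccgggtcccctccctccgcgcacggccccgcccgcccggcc
Ccnb1, chr13:100786457-100786606, minus strand: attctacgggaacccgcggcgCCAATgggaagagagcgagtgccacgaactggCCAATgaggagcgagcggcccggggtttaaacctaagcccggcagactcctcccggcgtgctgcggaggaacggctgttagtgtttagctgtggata
Ccnb2, chr9:70421525-70421674, minus strand: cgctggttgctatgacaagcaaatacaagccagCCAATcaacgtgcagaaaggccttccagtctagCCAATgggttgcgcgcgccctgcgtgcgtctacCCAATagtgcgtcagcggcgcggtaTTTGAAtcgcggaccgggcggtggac
Ccnb3, chrX:7041590-7041739, minus strand: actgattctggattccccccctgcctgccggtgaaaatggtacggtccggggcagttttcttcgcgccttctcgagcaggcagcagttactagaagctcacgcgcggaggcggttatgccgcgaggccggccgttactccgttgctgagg
Cdk1, chr10:69352883-69353032, minus strand: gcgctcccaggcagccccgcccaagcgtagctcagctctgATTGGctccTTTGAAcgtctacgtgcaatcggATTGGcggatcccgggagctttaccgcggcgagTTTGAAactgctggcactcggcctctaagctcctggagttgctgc
Plk1, chr7:122159315-122159464, plus strand: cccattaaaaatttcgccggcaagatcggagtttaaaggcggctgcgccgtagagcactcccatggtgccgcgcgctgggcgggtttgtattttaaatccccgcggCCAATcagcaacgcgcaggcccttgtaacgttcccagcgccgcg

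Over the full windows of the table, 250 bases before to 50 after the start, the promoters of 8 members were searched. Ccna2 had no entry, and Cdc25c was left out of the search. CCAAT was found in 7 of the 8, all but Ccnb3, against 37.4% of the 32851 promoters in the table. TTTGAA was found in 3 (Ccnb2, Cdk1 and Plk1, where it lies past the printed window), against 17.9%. The E2F letters were found in Cdk2 only, with 2 matches, against 4.6%, and CACGTG in none, against 7.15%. Ccnb2 and Cdk1 each held 3 CCAAT and 2 TTTGAA matches and Ccnb1 2 CCAAT, while Ccnb3 held none of the 4 motifs. A match describes letters and not a bound site, and any relation of the motifs to the fold changes was not tested.

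The 10 transcripts spanned a 28.1-fold range of FPKM, a scale that allows for length. Over the 6 libraries the mean was 78.2 for Ccnb2, 66.2 for Ccna1, 37.5 for Plk1, 27.5 for Cdk2 and 24.1 for Ccnb1. It was 12.9 for Aurkc, 10.3 for Cdk1, 8.42 for Cdc25c, 2.93 for Ccna2 and 2.79 for Ccnb3. Ccnb2 exceeded Ccna1 in 6 of 6 libraries although their ranges overlapped, and Plk1 exceeded Cdk2 in 5 of 6. The order of Ccna2 and Ccnb3 turned with the label: Ccnb3 was higher in all 3 libraries labelled control and Ccna2 in all 3 labelled cKO. The germ cell cyclin Ccna1 thus stood above the mitotic cyclin Ccna2, and Ccnb2 above Ccnb1, in all libraries, while Cdk1 lay below its partner cyclins Ccnb1 and Ccnb2.

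**Figure D1:**
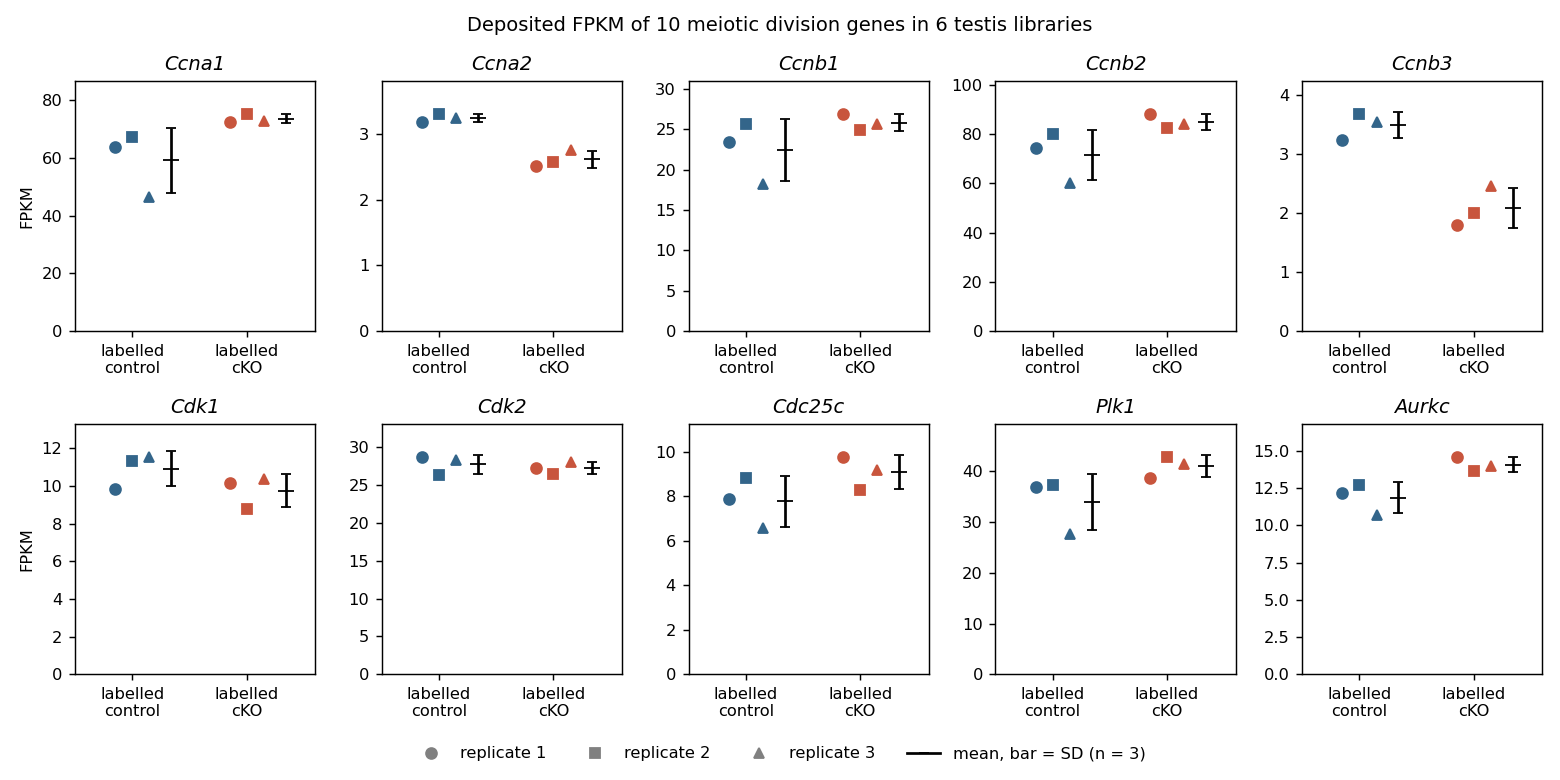
Deposited FPKM (vertical axis, from 0) of each member in the 3 libraries labelled control and the 3 labelled cKO, 1 point per library with the mean and SD beside them. Ccna1, Ccnb2, Plk1 and Aurkc lie higher under the label cKO, with the library labelled control replicate 3 lowest, while Ccna2 and Ccnb3 lie lower.

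The members showed 3 patterns between the labelled groups, none of which passed the test across all genes. edgeR called 0 of 10 members, as it called 0.0% of 18269 genes, and the lowest adjusted p of any gene was 0.166. At an unadjusted p under 0.05 in edgeR, 4 members were higher (Ccna1, Ccnb2, Plk1 and Aurkc) and 1 lower (Ccnb3). Of all 18269 genes, 1617 were higher and 3439 lower at that threshold, 27.7% in either direction. The groups did not overlap in TMM-scaled CPM for 7 of 10 members, against 37.9% of genes. Of these, 5 were higher under the label cKO (18.0% of genes) and 2 lower (19.8%). The median log2 fold change, labelled cKO minus labelled control, was 0.31 over the members and -0.0048 over all genes tested. It was 0.31 over 7 markers of pachytene and later spermatocytes and 0.37 over 8 spermatid markers, all of them positive. Over 6 early spermatocyte markers it was 0.094. A median of this size was thus not particular to the members. DESeq2 called 0 members higher, against 0.405% of genes, and 1 lower (Ccnb3), against 7.67%. Without the library labelled control replicate 2, which correlated at 0.98 to 0.982 with those labelled cKO, edgeR called 3 members higher (Ccna1, Ccnb2 and Plk1; 11.0% of genes) and Ccnb3 lower (20.7%).

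Among the A-type cyclins, the germ cell form and the mitotic form lay on opposite sides. Ccna1, needed for spermatocytes to enter the divisions, was at 63.8, 67.0 and 46.3 FPKM under the label control and 72.3, 75.2 and 72.8 under the label cKO. The groups did not overlap, and replicate 3 was far below the other libraries labelled control. The fitted log2 fold change was 0.42 (SE 0.16, adjusted p = 0.167), or 0.26 without that library (adjusted p = 0.174) and 0.56 without replicate 2 (adjusted p = 0.0346). Ccna2, which serves S phase and mitosis and in testis marks spermatogonia and the earliest meiotic cells, was at 3.18, 3.31 and 3.24 against 2.52, 2.57 and 2.76 FPKM. Here too the groups did not overlap, with a log2 fold change of -0.21 (SE 0.16, adjusted p = 0.388). Ccna2 rested on 132 to 167 expected counts per library, where counting alone gives a coefficient of variation of 8.7%. Its 3′ end overlaps Exosc9 on the opposite strand in the GENCODE annotation, and strandedness is not given, so reads of the pair may mix.

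The ratio of Ccna1 to Ccna2 sets both transcripts in a single number per library. It was 20.1, 20.2 and 14.3 under the label control and 28.7, 29.3 and 26.4 under the label cKO. The means, 18.2 ± 3.4 and 28.1 ± 1.52 (SD, n = 3 each), differed 1.55-fold without overlap. An exact two-sided permutation test gave p = 0.1, the smallest that 3 against 3 allows, or 0.278 adjusted over the 25 ratios examined. As Ccna1 lay higher and Ccna2 lower without overlap in FPKM, this p was fixed in advance and adds no support. Of 8 spermatogonial markers 6 had negative and 2 positive fold changes (Id4 and Gfra1, both 0.15), and edgeR called none. Their summed FPKM, to which Uchl1 and Kit (also made by Leydig cells) gave much of the difference, was 87.2 to 122 under the label control and 71.5 to 75.1 under the label cKO. The sum of 6 proliferation markers was 127 to 137 against 129 to 138, and so overlapped. The part of either in the values of Ccna2 was not tested.

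The B-type cyclins divided in the same way, with Ccnb1 and Ccnb2 apart from Ccnb3. Ccnb1, the main partner of Cdk1 at the onset of M phase, was at 23.4, 25.6 and 18.2 FPKM under the label control and 26.9, 24.9 and 25.6 under the label cKO. On this scale the groups overlapped, although on TMM-scaled CPM they did not (39.3 to 58.0 against 58.3 to 63.6). Its log2 fold change was 0.30 (SE 0.15, adjusted p = 0.217), and leaving out the library labelled control replicate 3 gave 0.16. Ccnb2, the more abundant partner in testis, was at 74.4, 79.97 and 60.1 against 88.3, 82.2 and 84.1 FPKM. Every library labelled cKO lay above every library labelled control, by a log2 fold change of 0.34 (SE 0.13, adjusted p = 0.169). It was 0.22 without the library labelled control replicate 3 and 0.47 without replicate 2 (adjusted p = 0.0308). The ratio of Ccnb2 to Ccnb1 stayed between 3.12 and 3.31 in all 6 libraries.

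Ccnb3, an X-linked cyclin that in male mice is made early in meiotic prophase, had the largest fold change of the 10. It was at 3.24, 3.68 and 3.54 FPKM under the label control and 1.8, 2.0 and 2.45 under the label cKO. The groups were well apart, and the library labelled control replicate 3 lay between the other controls rather than at an extreme. The log2 fold change was -0.65 (SE 0.17), which ranked 352 of 18269 by p with an adjusted p of 0.166. It was -0.65 without that library (adjusted p = 0.17) and -0.57 without replicate 2 (adjusted p = 0.0487). DESeq2 gave -0.63 with an adjusted p of 0.0427, and over all alternatives the fold change ran from -0.78 to -0.55. Expected counts were 258, 294 and 278 against 149, 166 and 202.

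The ratio of Ccnb2 to Ccnb3 sets a transcript that lay higher over another that lay lower, so by arithmetic it differs more than either. It was 22.95, 21.7 and 16.97 under the label control and 49.0, 41.1 and 34.3 under the label cKO, a 2.02-fold difference of means (exact permutation p = 0.1, adjusted p = 0.278 over the 25 ratios). Since neither transcript overlapped between groups in FPKM, that p was fixed in advance and adds no support. Of 6 early spermatocyte markers 3 had positive and 3 negative fold changes, and edgeR called none. Their summed FPKM was 173, 222 and 163 against 199, 197 and 203, overlapping between groups. As a share of that sum, Ccnb3 was 1.88, 1.66 and 2.17% under the label control and 0.904, 1.01 and 1.21% under the label cKO. The synaptonemal complex genes Sycp3 (91.3 to 123 against 109 to 113 FPKM) and Sycp1 (28.3 to 46.1 against 34.7 to 44.1) gave most of that sum. The third positive gene, Spo11, was at 29.4, 32.9 and 28.2 against 36.2, 33.4 and 33.5 FPKM (log2 fold change 0.27, SE 0.11, adjusted p = 0.172). Its groups did not overlap, whereas those of the other early spermatocyte markers did. Among the negative genes Prdm9, which places recombination sites, was at 1.86, 2.29 and 2.05 against 1.41, 1.5 and 1.92 FPKM (log2 fold change -0.27, SE 0.22, adjusted p = 0.403), and Dmc1 and Meiob had fold changes of -0.062 and -0.015. Stra8, the retinoic acid target that opens meiosis and was placed among the spermatogonial markers, was at 7.27, 8.19 and 8.13 against 5.74, 5.55 and 6.19 FPKM (log2 fold change -0.32, SE 0.16, adjusted p = 0.217).

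**Figure D2:**
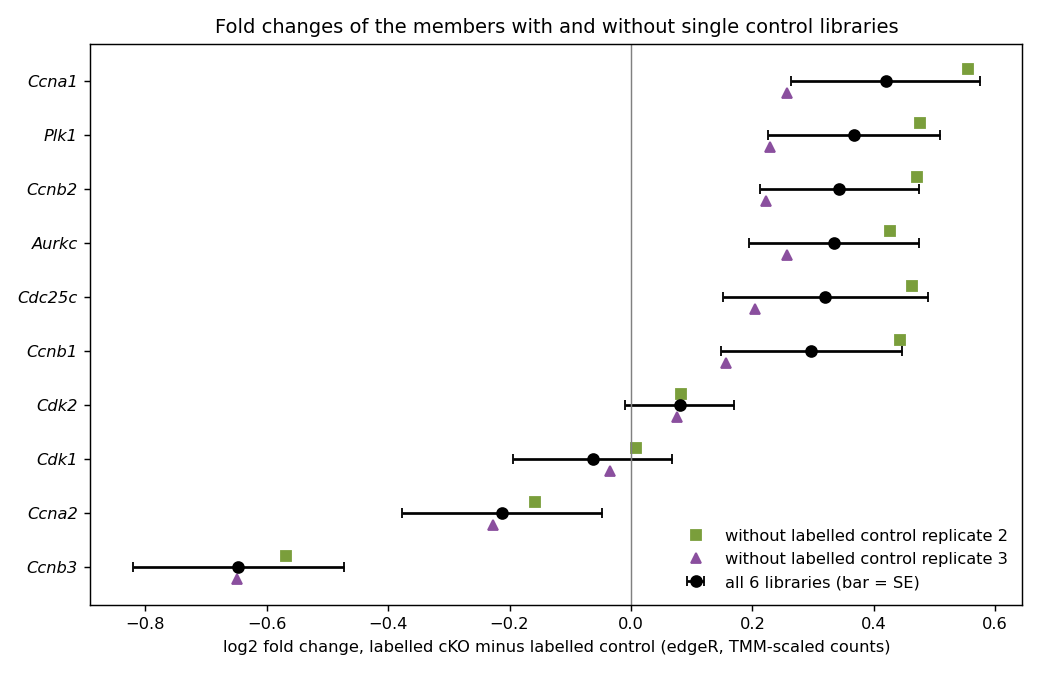
Log2 fold change of each member, labelled cKO minus labelled control, from edgeR with all 6 libraries (black, bar = SE) and without the library labelled control replicate 2 (squares) or replicate 3 (triangles). Ccna1, Ccnb1, Ccnb2, Cdc25c, Plk1 and Aurkc stay above 0 and Ccna2 and Ccnb3 below 0 in all 3 fits, while Cdk1 crosses 0.

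The kinases Cdk1 and Cdk2 overlapped between the groups on FPKM and on TMM-scaled CPM. Cdk1, the kinase of M phase, was at 9.84, 11.3 and 11.5 FPKM under the label control and 10.1, 8.76 and 10.4 under the label cKO. The log2 fold change of -0.063 (SE 0.13, adjusted p = 0.757) was 0.0078 without the library labelled control replicate 2 and 0.013 without that labelled cKO replicate 2. Cdk2, the prophase kinase that sits at telomeres and crossover sites, was at 28.7, 26.3 and 28.2 against 27.2, 26.4 and 28.03 FPKM. Its log2 fold change was 0.080 (SE 0.089, adjusted p = 0.549) with TMM but -0.020 by library totals. The coefficient of variation of Cdk2 was 2.38% under the label control and 3.02% under the label cKO. Pmel overlaps Cdk2 on the opposite strand in the GENCODE annotation. A missed threshold does not show that either kinase was equal between groups.

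Cdc25c, Plk1 and Aurkc lay on the same side as Ccnb1 and Ccnb2. Cdc25c, on chromosome 18, was at 7.87, 8.84 and 6.59 FPKM under the label control and 9.77, 8.26 and 9.2 under the label cKO. The groups overlapped, with a log2 fold change of 0.32 (SE 0.17, adjusted p = 0.231) that was 0.20 without the library labelled control replicate 3. Plk1 was at 36.96, 37.4 and 27.7 against 38.7, 42.9 and 41.6 FPKM, without overlap. Its log2 fold change was 0.37 (SE 0.14, adjusted p = 0.17), or 0.23 without replicate 3 (adjusted p = 0.192) and 0.48 without replicate 2 (adjusted p = 0.0447). Aurkc was at 12.1, 12.7 and 10.7 against 14.6, 13.6 and 14.0 FPKM, also without overlap (log2 fold change 0.33, SE 0.14, adjusted p = 0.177). Without the library labelled control replicate 3 it was 0.26.

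On TMM-scaled CPM, the library labelled control replicate 3 was the lowest of all for 6 of 10 members, namely Ccna1, Ccnb1, Ccnb2, Cdc25c, Plk1 and Aurkc. There it stood at 68.3% of the mean of the other libraries labelled control for Ccna1, 72.3% for Ccnb1, 72.6% for Plk1, 75.9% for Ccnb2, 76.8% for Cdc25c and 84.3% for Aurkc. For Ccna2 and Ccnb3 it stood at 97.2 and 99.6%, and for Cdk1 at 105.9%. It was the highest library for none on this scale, but the highest for Cdk1 on FPKM. How many of all genes were lowest in this library was not counted. Summed FPKM of the 7 late spermatocyte markers (3675) and of 8 spermatid markers (16090) was lowest there too, so this was not particular to the members. The Leydig and Sertoli markers were highest in this library. The part of any of these cell types in the members' values was not tested.

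Measured against late spermatocyte markers, the 6 members that lay higher overlapped between groups. The markers were Ldhc, Ybx2, Pgk2, Adam3, Hspa2, Piwil1 and Spag6, and their summed FPKM was the denominator. Ccnb2 was 1.63, 1.63 and 1.64% of it under the label control and 1.7, 1.6 and 1.65% under the label cKO. Ccnb1 was 0.51 ± 0.013% against 0.502 ± 0.018%, and Aurkc 0.272 ± 0.017% against 0.273 ± 0.0085% (SD, n = 3 each). Cdc25c was 0.177 ± 0.0045% against 0.177 ± 0.015%, Plk1 0.775 ± 0.029% against 0.799 ± 0.046%, and Ccna1 1.34 ± 0.072% against 1.43 ± 0.033%. The exact permutation p of the 6 ran from 0.2 to 1.0.

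On the same scale the other members were lower under the label cKO. Ccnb3 was 0.0708, 0.0751 and 0.0963% of the late marker sum under the label control and 0.0347, 0.0388 and 0.0482% under the label cKO, a ratio of means of 0.503. Ccna2 was 0.0751 ± 0.011% against 0.0509 ± 0.003%, and Cdk1 0.253 ± 0.053% against 0.19 ± 0.018%, each without overlap (exact permutation p = 0.1 for each, adjusted p = 0.278 over the 25 ratios). For Ccnb3 and Ccna2 the separation was fixed in advance, since they lay lower and the marker sum higher without overlap in FPKM. Cdk2 was 0.643 ± 0.12% against 0.53 ± 0.02%, and its groups overlapped. The late markers were themselves higher in all 7 of 7 genes by fitted log2 fold change, with a median of 0.31, and edgeR called none of them, so this scale moves with the label.

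**Figure D3:**
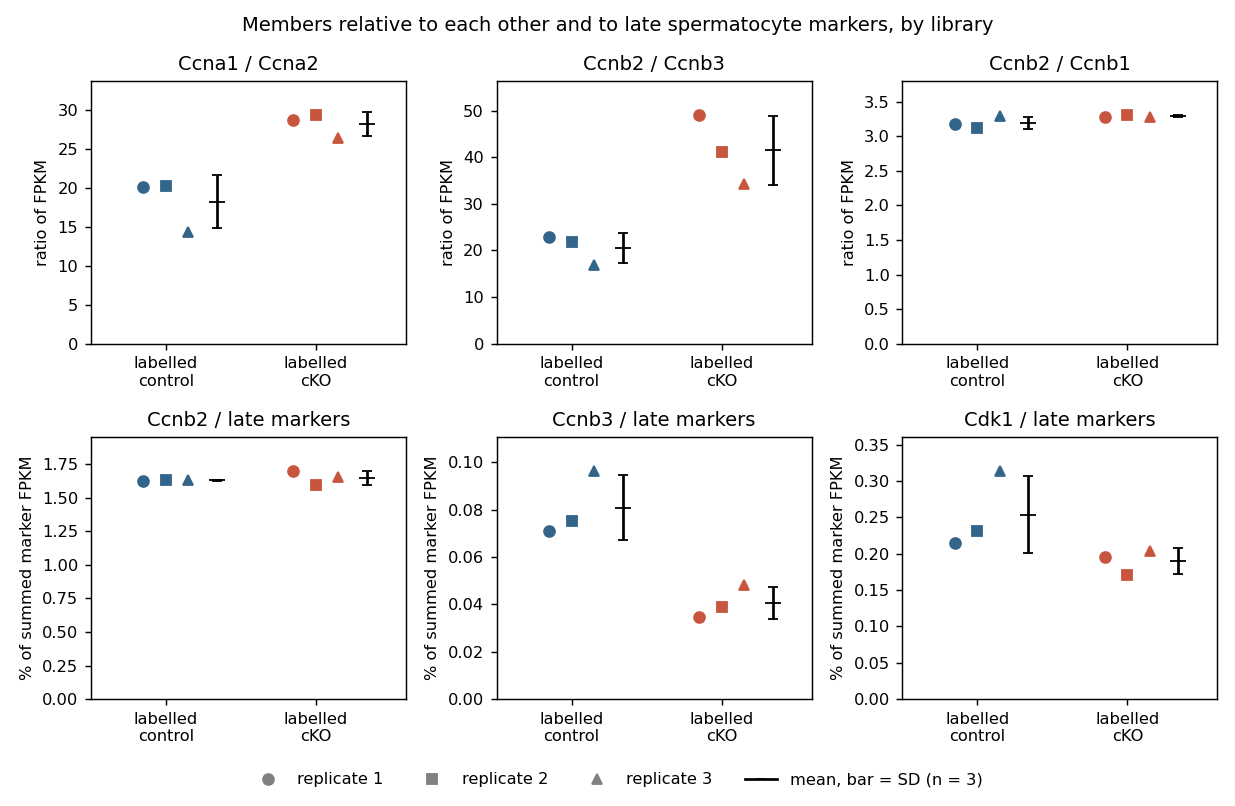
Ratios of FPKM between members (upper row) and members as a percent of the summed FPKM of 7 late spermatocyte markers (lower row), 1 point per library with mean and SD, axes from 0. The ratios of Ccna1 to Ccna2 and of Ccnb2 to Ccnb3 are higher in every library labelled cKO, whereas Ccnb2 to Ccnb1 and Ccnb2 to the late markers are nearly level.

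The length by which FPKM is scaled varied little. Ccna2, Ccnb1, Ccnb2, Cdk1, Cdc25c and Plk1 had the same length in all 6 tables. The lengths ran from 1634 to 1665 bases for Ccna1, 2372 to 2404 for Cdk2, 1304 to 1320.2 for Aurkc and 4453 to 4466 for Ccnb3. In mm10 coordinates Ccna1 lies on chromosome 3 (55045469 to 55057634) with Ccna2 on the same chromosome (36564865 to 36573038), Cdk1 and Cdk2 share chromosome 10, and Plk1 and Aurkc share chromosome 7. Ccnb3 (chromosome X, 6979652 to 7041635) is the only X-linked member. Processed pseudogenes of Ccnb1 and Ccnb2 are annotated, and neither is listed in the deposited tables.

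The remaining genes of the pathway were read in 5 lists, in which edgeR called 0 of 68 tested genes. Around Cdk1 the list of M-phase entry held 15 tested genes of 16, with 8 positive, 7 negative and a median log2 fold change of 0.068 (-0.030 by library totals, -0.017 without the library labelled control replicate 3). The chaperone Hspa2, which Cdk1 needs to bind cyclin B in spermatocytes, was at 404, 393 and 298 against 423, 432 and 412 FPKM (log2 fold change 0.31, SE 0.14, adjusted p = 0.195). The translation factor Eif4g3 was at 99.98, 94.1 and 78.95 against 97.2, 102 and 99.0, and the Cdk subunit Cks2 at 83.0, 106 and 86.4 against 99.4, 94.9 and 96.8. Ensa, an inhibitor of the phosphatase that opposes Cdk1, lay the other way at 36.8, 35.6 and 40.7 against 32.2, 33.1 and 31.8.

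Of 9 tested genes in the list of partners and inhibitors of Cdk2, 7 were positive and 2 negative, with a median of 0.078 (-0.018 by library totals, -0.068 without the library labelled control replicate 3). The negative genes were Cdkn1a, at 6.45, 6.09 and 11.3 against 4.64, 5.09 and 4.89 FPKM, and Cdkn1b, at 4.72, 3.58 and 8.04 against 2.55, 4.11 and 3.36 FPKM. Both encode inhibitors of Cdk2 complexes, and each had a log2 fold change of -0.60 (SE 0.25 and 0.29, adjusted p = 0.175 and 0.202), or -0.28 without the library labelled control replicate 3, where both were highest. Cdkn1c, of the same inhibitor family, had a log2 fold change of 0.078. Cdkn2c, an inhibitor of Cdk4 and Cdk6 that was placed in this list, was at 56.6, 55.3 and 41.1 FPKM against 61.3, 63.6 and 57.0, and the crossover gene Cntd1 at 42.2, 45.8 and 35.0 against 45.8, 45.6 and 49.2. Cdkn2d (28.5 to 31.6 against 28.6 to 33.1) and Ccne2 (5.82 to 8.81 against 7.33 to 8.21) overlapped between groups.

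The Aurora, polo and centromere list had the highest median of the 5. Of its 14 tested genes 11 were positive and 3 negative, with a median of 0.23 that was 0.13 by library totals and 0.12 without the library labelled control replicate 3. The haspin kinase Gsg2, which marks centromeric histone H3 and is made in quantity by haploid germ cells, was at 265, 282 and 215 against 304, 316 and 299.6 FPKM (log2 fold change 0.37, SE 0.13, adjusted p = 0.167). Aurka, the spindle pole Aurora kinase, was at 60.5, 72.8 and 52.9 against 75.5, 76.8 and 73.1 (log2 fold change 0.37, SE 0.14, adjusted p = 0.169). The centrosomal kinase Nek2 was at 65.4, 67.8 and 53.0 against 70.1, 70.95 and 70.3, and the passenger subunit Birc5 at 37.3, 44.4 and 29.98 against 42.3, 42.8 and 41.6.

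Subunits of the anaphase promoting complex and its regulators were split. The 25 tested genes gave 14 positive and 11 negative, with a median of 0.055 (-0.044 by library totals). The activators Cdc20 (58.3, 63.2 and 43.4 against 65.2, 68.7 and 61.5 FPKM) and Fzr1 (66.3, 60.5 and 49.5 against 61.5, 72.3 and 60.99) and the ubiquitin-conjugating enzyme Ube2s (380, 393 and 307 against 405, 428 and 386) were lowest in the library labelled control replicate 3. The small subunit Anapc13 was at 52.0, 64.1 and 68.3 against 57.5, 59.3 and 64.7, and its groups overlapped. The subunits Anapc1 (12.4, 11.5 and 14.97 against 8.79, 8.88 and 9.49 FPKM) and Anapc5 (50.9, 41.6 and 62.7 against 38.3, 39.7 and 34.9) lay lower without overlap, as did Anapc2, Cdc26 and Fbxo5 with log2 fold changes of -0.24, -0.29 and -0.34. On TMM-scaled CPM these were the 5 of 25 genes that lay lower without overlap, against 19.8% of all genes. Another 7 lay higher without overlap, against 18.0% of all genes. The log2 fold change of Anapc1 was -0.41 (SE 0.11, adjusted p = 0.166) and that of Anapc5 -0.36 (SE 0.14, adjusted p = 0.172). They were -0.31 and -0.21 when the library labelled control replicate 3 was left out. The subunit Anapc4 overlapped between groups, with a log2 fold change of -0.056 that was 0.074 without that library.

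D-type cyclins and their kinases, which serve the G1 phase of the cell cycle, gave 2 positive and 3 negative of 5, with a median of -0.16. Ccnd3 was at 70.3, 68.1 and 66.4 FPKM against 67.8, 77.9 and 65.9. Cdk4 was at 24.3, 17.9 and 33.8 against 14.6, 18.1 and 15.2 (log2 fold change -0.56, SE 0.22, adjusted p = 0.171), highest in the library labelled control replicate 3. Ccnd2 was at 1.92, 1.09 and 2.62 against 1.01, 0.95 and 0.94 (log2 fold change -0.85, SE 0.30, adjusted p = 0.166), and Ccnd1 at 2.18, 1.97 and 2.53 against 2.04, 1.92 and 1.62. Cdk6 was at 1.29, 1.31 and 1.03 against 1.23, 1.32 and 1.58. All 8 Sertoli and 6 Leydig markers had negative fold changes, as Cdk4, Ccnd2 and Ccnd1 did, while Ccnd3 and Cdk6 had positive ones, and edgeR called none of these genes. The part of somatic cells in these values was not tested.

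**Figure D4:**
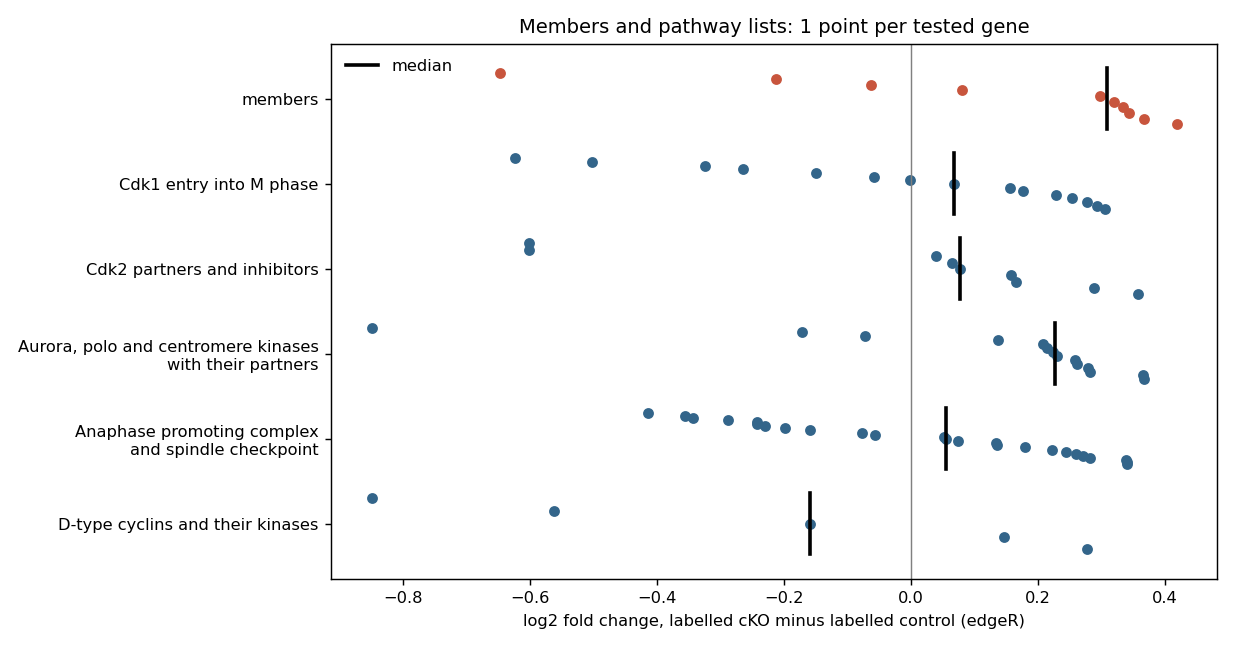
Log2 fold change, labelled cKO minus labelled control, of each tested gene among the members and the 5 pathway lists, with the median of each as a black bar. Members have a median of 0.31 with Ccnb3 as the lowest point, and with TMM scaling the D-type cyclin list is the only one with a median below 0; by library totals the M-phase entry (-0.030), Cdk2 (-0.018) and anaphase promoting complex (-0.044) lists are below 0 too.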

How the data were processed

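Polyadenylated RNA of 6 testis libraries was measured. Per the file headers, the deposited tables give an expected count, an FPKM value, which the authors scaled to length and library size, and a length per gene. The submitters' processing notes name bcl2fastq 2.16, HISAT2 2.0.4, Bowtie2 2.2.5, RSEM, DESeq2 and mm10 without roles. No gene under an FPKM of 0.01 is listed, and an unlisted gene was set to 0. Libraries were grouped by title and genotype label. Expected counts were rounded, filtered with filterByExpr (minimum count 10, minimum total 15; 18269 genes, all 10 members among them), scaled by TMM and tested with edgeR 4.0.16 (R 4.3.3), quasi-likelihood F-test, Benjamini-Hochberg adjustment over all genes at 0.05. Each SE is the fold change divided by the square root of F. Single values were compared by exact two-sided permutation, which cannot go below p = 0.1 here. Alternatives were DESeq2 1.42.0, other scalings and filters, limma 3.58.1 on log2 of FPKM plus 1 or 0.1 where 3 or more libraries reached an FPKM of 1, a replicate block, and each library left out. The fits were tested on simulated data with known changes. Named genes were the members, L3mbtl2, the 4 most abundant genes of each pathway list and the 2 most abundant of the spermatogonial, early and late spermatocyte marker lists. The other marker lists were described as lists only. Stra8, Kit, Gfra1, Spo11, Prdm9, Dmc1, Meiob, Cdkn1a, Cdkn1b, Cdkn1c, Anapc1, Anapc2, Anapc4, Anapc5, Cdc26, Fbxo5, Cdk6 and the other late markers were named after their values were seen. Members and lists were chosen with earlier results of these data known.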

Additional observations from a re-analysis of the deposited data

How the results depend on the processing

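The counts of calls depended on the tool and on 1 library. Against 0 higher and 0 lower over all genes, DESeq2 called 72 higher and 1364 lower, and limma called 1 higher at either pseudocount (1 or 0.1) and 0 lower. Leaving out each library in turn gave 0 to 2049 higher and 0 to 3851 lower over all genes, 0 to 3 higher and 0 to 1 lower among the members, and 0 to 7 higher and 0 to 6 lower among the pathway lists. The highest values came without the library labelled control replicate 2. Among the members DESeq2 called 1 lower, and every other alternative with all 6 libraries called 0. Why the count rises without that library was not tested. The direction of Ccna1, Ccna2, Ccnb1, Ccnb2, Ccnb3, Cdc25c, Plk1 and Aurkc held under every alternative. Cdk1 reversed to 0.0078 without the library labelled control replicate 2 and to 0.013 without that labelled cKO replicate 2; over the libraries left out it ran from -0.14 to 0.013. Cdk2 reversed to -0.020 by library totals, which move the median of all genes to -0.10, and to -0.024 and -0.025 on FPKM; the cause was not tested. Same-numbered libraries did not deviate together (correlations of 0.043, -0.007 and -0.039 across genes), so the numbers were not taken to pair them, and with the replicate number as a block edgeR called 0 genes higher and 0 lower. Depth limits Ccna2 and Ccnb3, with counting errors of 8.7 and 8.18% at their lowest counts.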

Other observations

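Over the 6 libraries, the transcripts most like Ccna1 in TMM-scaled log2 CPM were Atp8b3, Hk1 and Ccnk (Pearson r of 0.9999, 0.9994 and 0.9993). Those most like Cdk1 were Eif1ax, Slmo1 and Zfp248 (0.985, 0.983 and 0.977). Chosen after their values were seen, Ccna2 had Ccnb3 as its second most like gene of all tested (0.985), and Ccnb2 had the protamine Prm1 as its most like (0.9987). The 6 points of each correlation share the group difference and the library labelled control replicate 3, so these values describe likeness only.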
